A study of Bos taurus with 6 samples.

Results

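Complement is a protein cascade of innate immunity in which proteases cleave the next component in turn and tag nearby surfaces for removal or lysis. The liver supplies most of it to blood, and epithelial and stromal cells of many tissues, the uterus among them, also make components locally. Host cells carry membrane regulators that inactivate the cascade on their own surface. The 10 genes described here are 6 activation components (C1R, C1S, C2, C4A, C3 and CFB) and 4 regulators (CFI, CD46, CD55 and CD59). They were taken by symbol from a table of 20958 genes, and all 10 were found. Every one of the 10 passed the filter on low counts, as did 12217 genes in all. They were chosen by symbol with their CPM in the mimic and NC libraries already known, so these levels and differences are given as a description.

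RNA was sequenced from BEND cells, an established line labelled as bovine endometrial epithelial cells, in 6 libraries. In 3 libraries the cells had received a mimic of the bovine microRNA bta-miR-200b, a synthetic RNA that supplies the mature microRNA. The other 3 had received a negative-control mimic, here called NC. All 6 came from transfected cells grown in DMEM with serum, and the labels of both groups carry the treatment term cell apoptosis. The labels state no dose, no time after transfection and no age or passage of the cells. They do not say whether the replicates were separate cultures, so the p-values reflect variation among these 6 libraries only, and that variation may be technical.

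Library totals ran from 20281474 to 21129547 counts in mimic libraries and from 19212694 to 20253017 in NC libraries. Levels are given as CPM, reads of a gene relative to the library's total, with totals scaled by TMM to correct for differences in composition. Of the epithelial markers, KRT8, KRT18 and KRT19 were abundant, at 541 CPM or more in each group's mean. EPCAM was at 2.51 ± 0.912 CPM in mimic and 0.0502 ± 0.0493 CPM in NC libraries (SD, n = 3 each), and CLDN4 was at 0 counts in all 6. CDH1 had 36.5 ± 2.29 CPM in mimic and 11.3 ± 0.912 CPM in NC libraries. OCLN had 16.5 ± 0.573 CPM in mimic and 12.1 ± 0.976 CPM in NC libraries. The keratin KRT7 was scarce, at 2.19 ± 0.364 CPM in mimic and 0.215 ± 0.204 CPM in NC libraries. DSP and MUC1 had group means of 0.752 to 1.63 CPM, and CLDN3 and CLDN7 were below the filter. The stromal markers COL1A1, COL1A2 and VIM were abundant too, at group means of 3587 to 11768 CPM. COL3A1, LUM, DCN and PDGFRA had group means of 203 to 2233 CPM. PDGFRB and POSTN had 38.5 to 48.7 CPM, and THY1 and FAP were scarce, at 4.97 to 7.38 CPM. KRT8, KRT18, KRT19, CDH1 and OCLN thus went with the epithelial label. The other listed epithelial markers and the abundant stromal genes did not. Of 10 macrophage markers, PTPRC, TYROBP and LYZ were at 0 counts in all 6 libraries and 5 were tested, the highest being CD14, at 1.92 ± 0.203 CPM in mimic and 3.13 ± 0.244 CPM in NC libraries, and CD163, at 2.34 ± 0.639 CPM in mimic and 2.42 ± 0.463 CPM in NC libraries (SD, n = 3 each).

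Setting mimic against NC addresses the transcripts that differ when miR-200b is overexpressed. The proteases and the thioester protein of the classical pathway were lower in the mimic libraries: C2 by 41.5%, C4A by 40.5%, C1R by 30.0% and C1S by 26.9%. C3, shared by all activation routes, and CFB, of the alternative pathway, had overlapping groups. Whether their differences were smaller than those of the classical pathway genes was not tested. Among the regulators CD46 stood higher in every mimic library, by 14.3% in the fit, and CD55, CD59 and CFI had overlapping groups with lower mimic means. For scale, the epithelial keratin KRT18 rose 1.94-fold in the same fit.

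**Figure D1:**
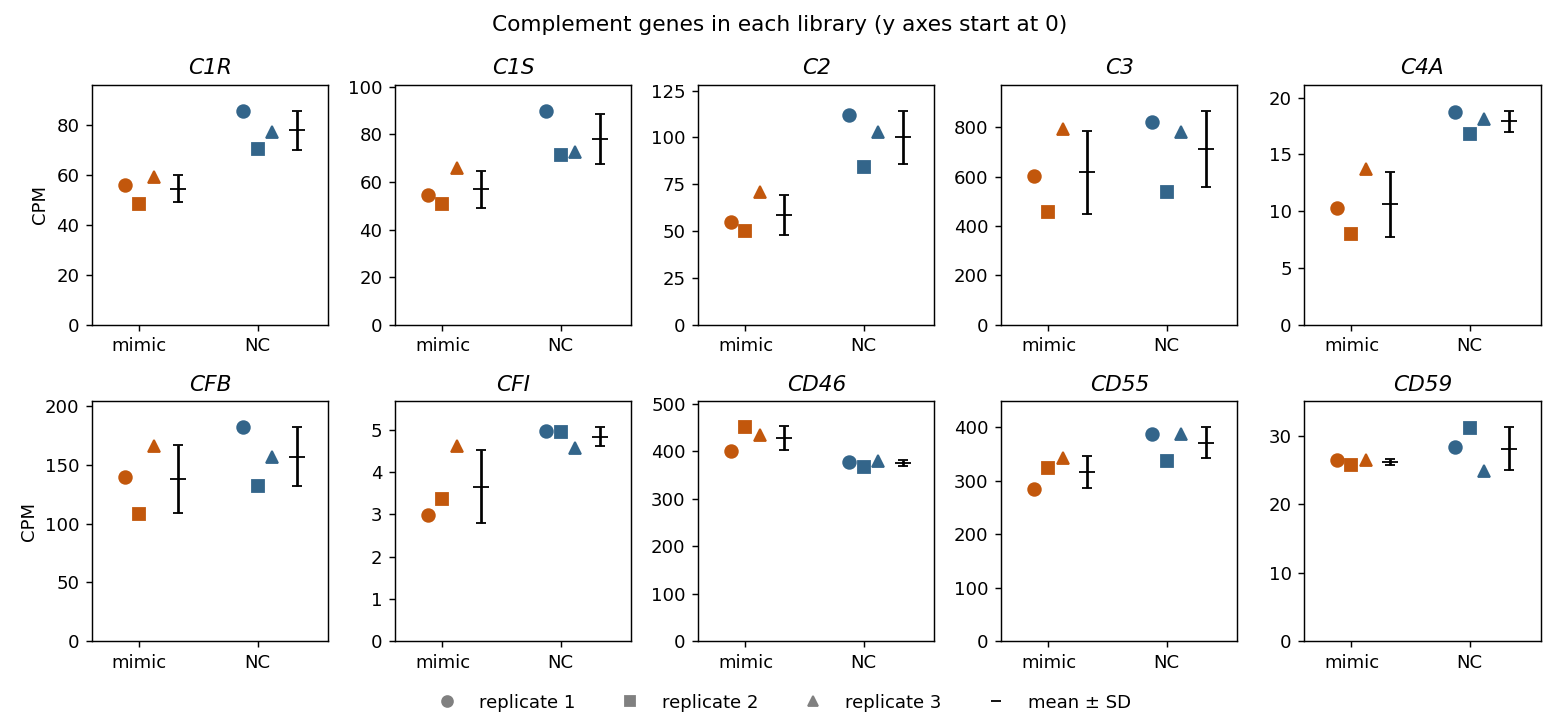
CPM (y axis, from 0) of the 10 complement genes in each library, mimic left and NC right; symbols give the replicate number and the black bar the mean ± SD of 3 libraries. C1R, C1S, C2 and C4A lie lower in all 3 mimic libraries than in any NC library, CD46 lies higher, and the other 5 genes overlap.

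The classical pathway begins with the C1 complex, whose proteases are encoded by C1R and C1S. C1R, which activates C1S within the complex, had 56.0, 48.3 and 59.0 CPM in mimic libraries 1 to 3, against 85.6, 70.3 and 77.2 CPM in NC libraries 1 to 3. The highest mimic library stood below the lowest NC library, and the log2 fold change was −0.51 ± 0.09 (SE). C1S, which cleaves C4 and C2, had 54.4, 50.9 and 65.8 CPM in mimic libraries, against 90.0, 71.5 and 72.4 CPM in NC libraries. Its groups were also separate, with mimic replicate 3 closest to the NC libraries. The log2 fold change of C1S was −0.45 ± 0.10. The ratio of C1R to C1S CPM within a library overlapped between the groups, at 0.895 to 1.03 in mimic and 0.951 to 1.07 in NC libraries.

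C4 and C2 together form the convertase of the classical and lectin pathways. C4A encodes the thioester protein that binds covalently to surfaces, and had 10.3, 8.0 and 13.7 CPM in mimic libraries, against 18.7, 16.8 and 18.1 CPM in NC libraries. The NC libraries lay close together, with a coefficient of variation of 5.35%, while the mimic libraries spread by 26.8% and all stood below them. C4A had a log2 fold change of −0.75 ± 0.14. C2, which supplies the catalytic subunit of that convertase, had 54.8, 50.1 and 70.7 CPM in mimic libraries, against 112, 84.4 and 103 CPM in NC libraries. The groups of C2 were separate, and its log2 fold change of −0.77 ± 0.12 was the lowest of the 10. In human cells C4 has near-identical gene copies, so reads of C4A are uncertain to the extent that cattle share this; the deposited table held a single row under a C4 symbol.

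C3, on which all activation routes converge, was the most read of the 10, with 603, 457 and 791 CPM in mimic libraries against 821, 536 and 782 CPM in NC libraries. The groups overlapped, and mimic replicate 3 was above 2 of the NC libraries. Its log2 fold change was −0.21 ± 0.27. CFB, the alternative pathway counterpart of C2, had 140, 108 and 166 CPM in mimic libraries, against 182, 132 and 157 CPM in NC libraries. Those groups overlapped as well, at a log2 fold change of −0.19 ± 0.16. C3 made up 63.3% to 67.8% of the summed CPM of the 6 activation components in mimic libraries and 58.8% to 64.6% in NC libraries. Their sum was 936 ± 222 CPM in mimic and 1144 ± 207 CPM in NC libraries (SD, n = 3 each), with overlapping ranges of 723 to 1166 and 911 to 1309 CPM. Without C3 the sum was 319 ± 54.8 CPM in mimic and 431 ± 56.6 CPM in NC libraries (SD, n = 3 each).

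Factor I and its cofactors degrade activated C3 and C4. CFI, the factor I protease, was the least read member at 2.99, 3.37 and 4.62 CPM in mimic libraries, against 4.98, 4.96 and 4.58 CPM in NC libraries. Mimic replicate 3 fell within the NC range and the other mimic libraries lay below it. The log2 fold change of CFI was −0.40 ± 0.18. CD46, a membrane cofactor of factor I and in cattle a receptor of bovine viral diarrhoea virus, had 400, 451 and 434 CPM in mimic libraries, against 378, 367 and 379 CPM in NC libraries. All mimic libraries were above all NC libraries, by little in replicate 1. CD46 had a log2 fold change of 0.19 ± 0.07, the single positive value among the 10.

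CD55, or decay-accelerating factor, is a lipid-anchored protein that dissociates the convertases. It had 284, 324 and 343 CPM in mimic libraries, against 387, 337 and 388 CPM in NC libraries. The groups overlapped through NC replicate 2, and the log2 fold change was −0.22 ± 0.08. CD59, the lipid-anchored inhibitor of the membrane attack complex, had 26.5, 25.7 and 26.4 CPM in mimic libraries and 28.3, 31.1 and 24.8 CPM in NC libraries. The mimic libraries lay within the NC range, at a log2 fold change of −0.10 ± 0.09. Summed over the 4 regulators, mimic libraries had 775 ± 53.0 CPM and NC libraries 778 ± 32.7 CPM (SD, n = 3 each). Within the near-equal sums, the most read pair, CD46 and CD55, had log2 fold changes of opposite sign. Their edgeR adjusted p-values were 0.0975 and 0.0903. The ratio of CD46 to CD55 CPM, chosen with these opposite signs in view, was 1.26 to 1.41 in mimic libraries and 0.976 to 1.09 in NC libraries.

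By edgeR's quasi-likelihood test over all tested genes with Benjamini-Hochberg adjustment at 0.05, 4 of the 10 were called lower (C1R, C1S, C2 and C4A). None was called higher, with CD46 at an unadjusted p of 0.00882 and no call by DESeq2 or limma-voom either. Over all tested genes 2.15% were called lower and 4.30% higher. The groups did not overlap with mimic lower for 4 members and with mimic higher for 1, against 10.4% and 11.4% of all tested genes. Because the members were chosen with this contrast in view, nothing is read from these shares. The median log2 fold change was −0.48 over the 6 activation components and −0.16 over the 4 regulators, beside 0.00 over all tested genes. C1S rested on single libraries: its edgeR adjusted p of 0.00591 became 0.0759 without NC replicate 1, 0.0878 without mimic replicate 1 and 0.0724 without mimic replicate 2.

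**Figure D2:**
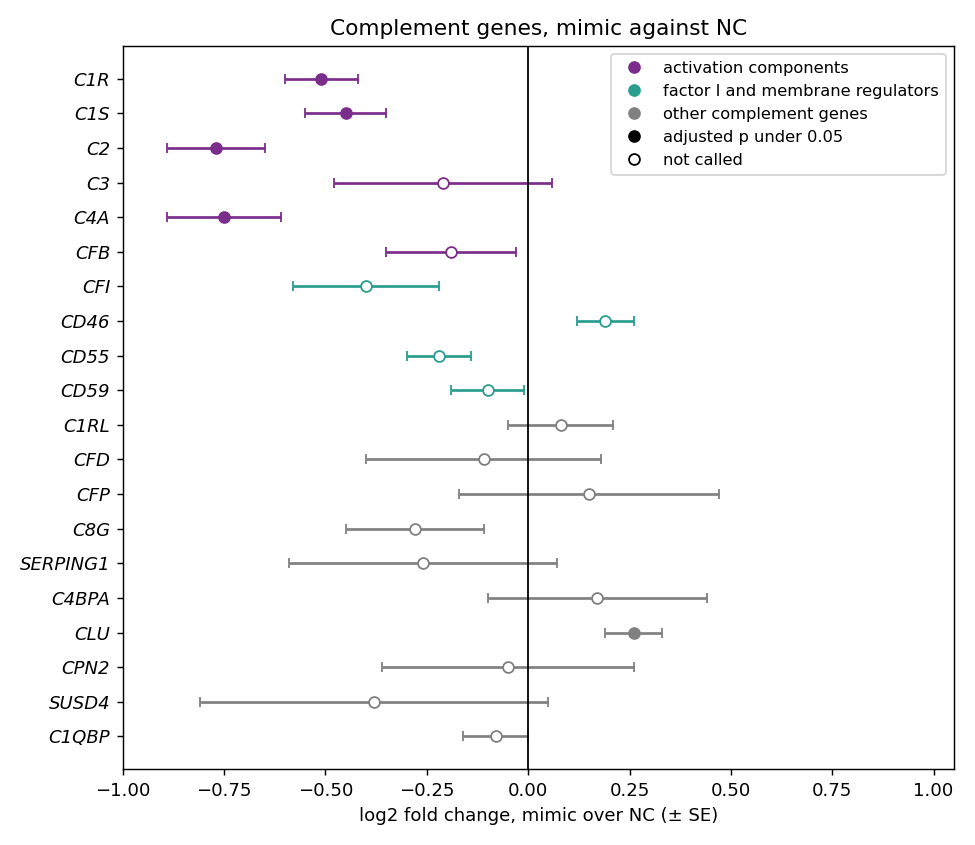
Log2 fold change of mimic over NC (x axis, ± SE) for the 10 complement genes and 10 other tested genes of the pathway; filled points had an edgeR adjusted p under 0.05. C2 and C4A lie farthest below 0, at −0.77 and −0.75, and CLU is the single called gene above 0, at 0.26.

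Variation between libraries of the same group is a measure that does not use the contrast, and it was high for C3 and CFB. C3 had a biological coefficient of variation of 23.1% in edgeR's fit, at the 99.9th percentile of tested genes, and CFB one of 14.0%, at the 97.4th. C2 and C4A stood at 10.2% and 10.3%, the 84.4th and 84.8th percentiles. C1R and C1S were less variable, at 7.37% and 8.33%, the 52.7th and 70.0th percentiles. Of the regulators, CFI stood at 10.4%, the 85.3rd percentile, at means of 3.66 CPM in mimic and 4.84 CPM in NC libraries. CD59 and CD55 stood at 7.29% and 6.97%, the 50.5th and 40.1st percentiles. CD46 had the lowest value of the 10, at 6.18% and the 5.57th percentile. Such coefficients tend to be higher in scarce genes and lower in abundant ones. The percentiles were not matched for level, so those of CFI and CD46 cannot be told apart from their levels. Over all tested genes the common value was 7.18%.

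The 6 activation components ranked the libraries alike within each group. Each was highest in mimic replicate 3, then replicate 1, then replicate 2, and in NC highest in replicate 1, then 3, then 2. That joint order held for 6 of 6 activation components, 0 of 4 regulators and 3.26% of all tested genes. The order was noticed in these values and then counted, and genes of a library share its RNA and its preparation. Whether the difference between libraries arose in the cultures or in the preparation was not tested.

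Ratios of CPM between components within a library, chosen after values were seen, were also compared. The ratio of C2 to CFB CPM was 0.392, 0.462 and 0.426 in mimic libraries, against 0.619, 0.640 and 0.659 in NC libraries. The groups were separate. The ratio had a coefficient of variation of 8.21% in mimic and 3.12% in NC libraries, where C2 alone had 18.5% in mimic and 14.2% in NC libraries. C4A to C3 gave 0.0170, 0.0175 and 0.0173 in mimic libraries, against 0.0228, 0.0314 and 0.0231 in NC libraries. All 3 mimic values were below all NC values, and NC replicate 2 stood apart from the other NC libraries. The coefficient of variation of C4A to C3 was 18.9% in NC libraries, above the 5.35% of C4A alone. In mimic libraries it was 1.39%, below the 26.8% of C4A alone. CFB to C3, by contrast, overlapped, at 0.210 to 0.237 in mimic and 0.201 to 0.246 in NC libraries.

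**Figure D3:**
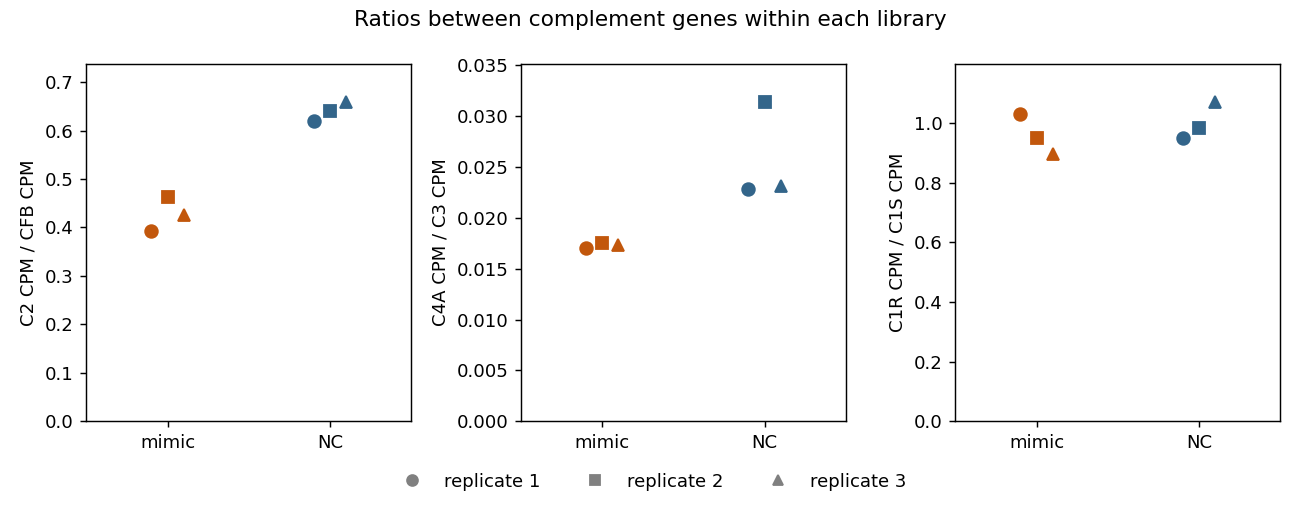
Ratios of CPM between complement genes within each library (y axes from 0), mimic left and NC right, with symbols for the replicate number. The C2 to CFB ratio is at most 0.462 in mimic libraries and at least 0.619 in NC libraries, C4A to C3 is likewise separate, and C1R to C1S overlaps.

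C1R and C1S are direct neighbours in a RefSeq gene table, as are CFB and C2. Of these neighbours, CFB had a log2 fold change of −0.19 ± 0.16 beside C2 at −0.77 ± 0.12. The next tested genes outside the pairs were near 0: C1RL beyond C1R had 0.08 ± 0.13, LPCAT3 beyond C1S −0.02 ± 0.07, ZBTB12 beyond C2 0.01 ± 0.10 and NELFE beyond CFB −0.08 ± 0.08. STK19 and LOC781663, on either side of C4A, had −0.22 ± 0.10 and −0.37 ± 0.40, and GPR108 and TNFSF9, on either side of C3, −0.06 ± 0.08 and −0.13 ± 0.10. GAR1 and PLA2G12A, on either side of CFI, had −0.17 ± 0.11 and 0.02 ± 0.08. For CD59 the nearest tested gene on one side was FBXO3, at 0.05 ± 0.07, and KIAA1549L on the other had −0.21 ± 0.20. Around CD46 and CD55, several untested genes lay between the member and the nearest tested one, PLXNA2 at 0.17 ± 0.08 and ASPM at 0.39 ± 0.08 for CD46, and C4BPA at 0.17 ± 0.27 on one side of CD55. Of these neighbours outside the 10 members, ASPM, a mitotic spindle protein, was the one that passed, at an edgeR adjusted p of 0.00214, or 0.0525 without NC replicate 1. C4A overlaps the pseudogene CYP21A1P, and C1R, C3, CFI and CD59 overlap uncharacterised loci. Whether strand was used in counting is not stated, so reads of overlapping genes could not be told apart.

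Most of the rest of the complement system was scarce or undetected. Of 43 other complement genes listed, 41 were in the table, 18 of them at 0 counts in every library, 13 below the filter and 10 tested. The C1q chains C1QA, C1QB and C1QC, the recognition part of the C1 complex, were at 0 in all 6 libraries, as was the lectin MBL2. A count of 0 allows up to 0.0247 CPM over the 6 libraries together, counting error only. Of the terminal pathway, C5, C6, C8A and C8B were at 0 and C8G was tested, at 3.78 ± 0.466 CPM in mimic and 4.60 ± 0.432 CPM in NC libraries (SD, n = 3 each). Its edgeR adjusted p was 0.412. None of the 9 receptor genes in the table passed the filter, and CR2, ITGAM and CD93 were at 0.

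Of these 10 tested genes, 1 rose and 0 fell in edgeR's quasi-likelihood test, with 0 lower at an unadjusted p under 0.05 and 0 lower by DESeq2 or limma-voom. CLU, a secreted chaperone that also inhibits the membrane attack complex, rose 1.19-fold, at 103 ± 7.98 CPM in mimic and 86.0 ± 1.10 CPM in NC libraries (SD, n = 3 each). Its edgeR adjusted p was 0.0395, and 0.0502 to 0.172 without any single library other than mimic replicate 3. The C1-like protease C1RL had a log2 fold change of 0.08 ± 0.13, properdin, CFP, 0.15 ± 0.32 and factor D, CFD, −0.11 ± 0.29. C1QBP, a mitochondrial protein that binds C1q, had −0.08 ± 0.08, and the complement inhibitor SUSD4, at 26 reads in mimic and 33 in NC libraries, −0.38 ± 0.43. The median over the 10 was −0.06.

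Complement genes are known to respond to inflammatory cytokines, and a list of cytokines, receptors and transcription factors that act on them held 18 tested genes. None passed in either direction, with 1 higher (NFKB2) and 1 lower (TNFRSF1A) at an unadjusted p under 0.05 and 0 by DESeq2 or limma-voom. NFKB2, an NF-kB subunit, had 79.8 ± 5.05 CPM in mimic and 71.1 ± 4.31 CPM in NC libraries, and TNFRSF1A, a receptor of TNF, 189 ± 14.1 CPM in mimic and 211 ± 6.43 CPM in NC libraries (SD, n = 3 each). NFKB1 had a log2 fold change of 0.17 ± 0.09. The list median was −0.02. IFNG, IL1B and TNF were at 0 counts in all 6 libraries. Of 19 other acute-phase genes listed, 2 were tested and 0 passed, with 0 higher and 1 lower (FGG) at an unadjusted p under 0.05 and 0 by DESeq2 or limma-voom. FGG, the fibrinogen gamma chain, had 50.3 ± 4.34 CPM in mimic and 59.6 ± 4.17 CPM in NC libraries (SD, n = 3 each), and A2M, a protease inhibitor related to C3, a log2 fold change of −0.05 ± 0.36. The acute-phase genes SERPINA1, SERPINA3, HP, LCN2, LBP, CRP, APCS and SAA2 were at 0 counts.

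Markers of cell types that make complement differed between the groups in the same libraries. Of 11 tested stromal markers 3 fell (DCN, PDGFRA and PDGFRB), none rose by edgeR, DESeq2 or limma-voom, also at an unadjusted p under 0.05, and 8 did not pass. Their summed level was 23682 to 26394 CPM in mimic and 25345 to 26744 CPM in NC libraries, and none of the 11 was at 0. Of 9 tested epithelial markers 7 rose, with a sum over the list of 10450 to 11872 CPM in mimic and 8602 to 9317 CPM in NC libraries. Of the 7, DSP was not called by DESeq2 or without mimic replicate 1 or 3 or NC replicate 1 or 3. OCLN lost its call without mimic replicate 2 or NC replicate 3, and KRT8 without NC replicate 1. Over all alternatives, by edgeR, DESeq2 or limma-voom, the adjusted p-values of DSP, OCLN and KRT8 reached 0.133, 0.102 and 0.0788. The 10 macrophage markers summed to 6.34 to 7.23 CPM in mimic and 7.83 to 8.77 CPM in NC libraries; 5 were tested and CD14, a lipopolysaccharide co-receptor, fell by edgeR but was not called by DESeq2 or limma-voom. PDGFRA lost its call without mimic replicate 1 or 2 or NC replicate 1 or 3, and PDGFRB without mimic replicate 2 or NC replicate 3. CD14 lost its call without any 1 of the same 4 libraries as PDGFRA. Over all alternatives, by edgeR, DESeq2 or limma-voom, the adjusted p-values of PDGFRA, PDGFRB and CD14 reached 0.173, 0.174 and 0.204. The 7 endothelial markers summed to 6.0 to 6.15 CPM in mimic and 6.64 to 8.01 CPM in NC libraries, and none was at 0 in all 6. Of the 3 tested, the adhesion molecule PECAM1 fell, at 1.57 ± 0.435 CPM in mimic and 3.0 ± 0.327 CPM in NC libraries, and the transcription factor ERG rose, at 2.73 ± 0.350 CPM in mimic and 1.64 ± 0.0671 CPM in NC libraries (SD, n = 3 each). PECAM1, at an edgeR adjusted p of 0.0146, was also called by DESeq2 and limma-voom but not without mimic replicate 2 or NC replicate 1 or 3 (up to 0.115). ERG, at an edgeR adjusted p of 0.0481, was called by neither DESeq2 nor limma-voom, nor under RLE or upper quartile scaling. It was also not called without any single library other than mimic replicate 3. Over all alternatives, by edgeR, DESeq2 or limma-voom, its adjusted p-value reached 0.385. None of 9 lymphocyte markers was tested, and 6 were at 0. The part of stromal, epithelial, macrophage or endothelial markers in the complement differences was not tested, and fewer cells of a type cannot be told apart from less RNA per cell in bulk RNA.

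Leaving out mimic replicate 2 brought C3 and CFB close to 0. The log2 fold change of C3 was −0.03 without mimic replicate 2 and −0.43 without mimic replicate 3, and that of CFB −0.04 and −0.34. Across the 6 omissions C4A moved about as far as C3, between −0.97 and −0.58, and CFI between −0.61 and −0.28. For C2 the range was −0.93 to −0.67, and for C1R −0.59 to −0.44. Without mimic replicate 3 the test called 7 members lower, with CFB, CFI and CD55 added. Over all tested genes that omission raised the calls from 263 to 414 lower and from 525 to 731 higher.

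**Figure D4:**
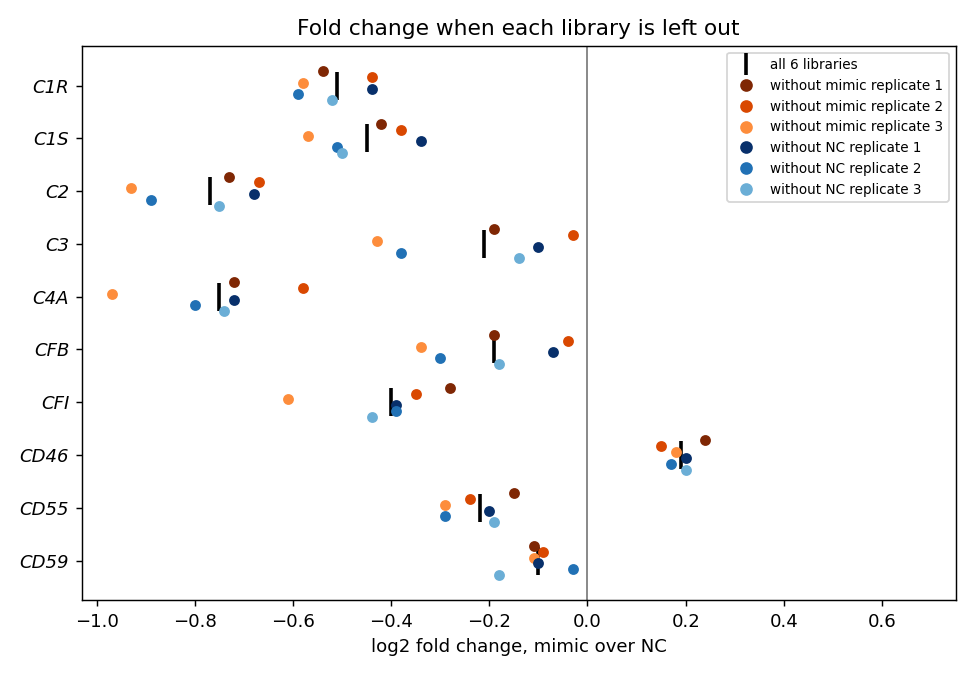
Log2 fold change of mimic over NC (x axis) for each of the 10 genes with all 6 libraries (black bar) and with each library left out (points). C3 runs from −0.43 to −0.03 and CFB from −0.34 to −0.04, while C2 and C4A stay at or below −0.58.

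Over the 6 libraries, the genes whose log2 CPM most resembled that of C3 among the 9616 other genes whose mean log2 CPM reached 3 were SERINC3, CYB561D1, NHEJ1, HOXD10 and SMOC2. Their Pearson correlations with C3 were 0.989, 0.987, 0.987, 0.978 and 0.978, the highest among all those compared over these same 6 libraries. SMOC2, a secreted matrix protein, had 133, 112 and 151 CPM in mimic and 157, 132 and 153 CPM in NC libraries. Chosen for its likeness to C3, SMOC2 was also lowest in replicate 2 of both groups, as were 12.9% of all tested genes. It was not called, at an edgeR adjusted p of 0.396.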

How the data were processed

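The authors' deposited table holds raw counts for each gene in every library, with symbols and GeneIDs per the file headers. Per the submitters' processing notes, the tools were Trimmomatic, HISAT2 and HTSeq; versions and roles are not given. For the genome build, annotation and strand setting nothing is given in the sources used here, and no coordinates are printed. A RefSeq gene table (ARS-UCD2.0) matched 97.8% of GeneIDs and served for neighbouring and overlapping genes.

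The test was the quasi-likelihood F test of edgeR 4.0.16 (R 4.3.3, with limma 3.58.1) on the 6 libraries with TMM scaling (factors 0.983 to 1.01), filterByExpr (minimum count 10, minimum total 15), robust dispersion, group as the factor and two-sided Benjamini-Hochberg adjustment at 0.05. Standard errors are the log2 fold change over the square root of F. The script was tested on simulated data. Groups and replicate numbers came from the sample titles. Within groups, pairs of libraries exceeded sampling noise (chi-square per degree of freedom 5.13 to 11.9). Between groups the values were 8.55 to 22.1, so the ranges overlapped. The lowest was that of mimic replicate 3 with NC replicate 3. Mimic replicate 3 had 11.9 with mimic replicate 1 and 7.4 with mimic replicate 2.

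The members and the gene lists were chosen with earlier results of these data known. Named genes were all members, the called genes of each list (up to 6 by p) or, where fewer than 3 were called, the 3 of smallest p, and the nearest tested neighbours. A gene of the lists is not reported here and was left out of the list counts. Markers, genes at 0 counts and the ratios were chosen after values were seen. Alternatives were RLE and upper quartile scaling, no filter, a minimum CPM of 1 in 3 libraries, limma-voom, DESeq2 1.42.0, a replicate block, leaving out each library and, added after seeing the data, leaving out both replicate 2 libraries.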

Additional observations from a re-analysis of the deposited data

How the results depend on the processing

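Under RLE and upper quartile scaling, a stricter filter, DESeq2 and limma-voom, the same 4 members were called lower and none higher. Without a filter CD55 was added, with 341 genes lower in all against 263. C1R, C2 and C4A were called under all 14 alternatives, and all 10 members kept their direction under all 14. Leaving out 1 library gave 3 to 7 members lower and 0 to 1 higher (CD46 without mimic replicate 1), 275 to 731 genes higher and 82 to 414 lower in all, 0 to 1 other complement genes higher, and 0 to 1 inducers and acute-phase genes lower (FGG). The log2 ratio of summed activation components was then −0.48 to −0.13 against −0.29, and that of the regulators −0.04 to 0.05 against −0.01. Without both replicate 2 libraries 172 genes were lower in all, 5 members were lower and 0 other complement genes were higher. Among the 22 single genes followed, those not called that changed sign when 1 library was left out were C1RL (−0.04 to 0.16), CFP (−0.17 to 0.41), CFD (−0.34 to 0.01) and A2M (−0.35 to 0.12). The cause was not tested.

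Deviations from the group means correlated between same-numbered libraries at −0.07, 0.16 and 0.23, and mimic replicate 1 correlated best with NC replicate 2. The rule that every pair exceed 0.1 was not met, so the main fit used no pairing. Whether the numbers pair the libraries remains unknown. With the replicate number as a block, 816 genes were higher and 496 lower, 1 member was higher (CD46), 6 were lower (C3 and CD55 added), and 1 acute-phase gene was lower (FGG). C3 depended most on this choice. Its log2 fold change was −0.22 ± 0.07 with the block and −0.21 ± 0.27 without it. The edgeR adjusted p of C3 was 0.0134 with the block and 0.783 without it. CFI, at 62 to 94 counts per mimic library, was the member most limited by depth.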

Other observations

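SERPING1, the soluble inhibitor of the C1 proteases, was scarce in these cells, with a sum of 74 reads in mimic and 86 in NC libraries. Of the 3 fibrinogen chains, which are secreted as 1 complex in liver, FGG summed to 3094 reads in mimic and 3558 in NC libraries. FGB had 9 reads in mimic and 5 in NC libraries, and FGA had 1 in mimic and 0 in NC libraries.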
